A study of Rattus norvegicus with 10 samples.

Results

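The response of the gastrocnemius of the rat, a mainly fast-twitch muscle of the calf, to 20% calorie restriction (CR) was read from 4 of the 10 arrays of the study: the 2 arrays labelled 20% CR and the 2 control arrays. Rats in the 20% CR groups received 80% of the intake recorded for freely fed rats and the controls all of it, for 1 week or 1 month. All were male Wistar rats, 6 weeks old at the start and killed after a fast of 16 h, so the 20% CR and the control muscle were both fasted. Each array carried RNA pooled from 5 rats, which leaves 1 array per group and no replicate. The members were chosen by their labels, and each 20% CR array was set against the control array of the same duration as a log2 ratio, so that a ratio of 1 is a doubling. The other 6 arrays (5, 10 and 30% CR) entered the linear model only to estimate the spread, and the 10 and 30% CR arrays were also compared with 20% CR directly.

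Skeletal muscle carries its own circadian clock. BMAL1 and CLOCK switch on genes through a sequence called the E-box, among them the Per and Cry repressors that later shut BMAL1 and CLOCK down, and the factors DBP and TEF, which act through the D-box. REV-ERB proteins (Nr1d1, Nr1d2) and ROR proteins compete at another element and set the rhythm of Bmal1 itself, while NFIL3 opposes DBP at the D-box. Feeding time and restricted feeding are known to shift clocks outside the brain, and a food-restricted muscle is also known to lower growth hormone and insulin signalling and to burn more fat.

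The promoters of 4 clock genes whose signals changed are printed here because each holds 1 exact match to such an element, and the results below turn on these genes. Nr1d2, which also changed and holds such a match, is not printed. The sequences are from RefSeq (build GRCr8) and run 5′ to 3′ on the strand of the gene over 300 bases, 250 before the annotated start and 50 after it. Capitals mark the element: the D-box TTATGTAA in Per2, 192 bases before the start, the E-box CACGTG in Tef (198 bases) and Bhlhe41 (48 bases), and the core AGGTCA bound by REV-ERB and ROR proteins in Bmal1, 15 bases before it. Per2 lies on chr9:99496944-99497243 (minus strand), Tef on chr7:115206577-115206876 (plus), Bhlhe41 on chr4:180569306-180569605 (minus) and Bmal1 on chr1:176766078-176766377 (plus).
Per2: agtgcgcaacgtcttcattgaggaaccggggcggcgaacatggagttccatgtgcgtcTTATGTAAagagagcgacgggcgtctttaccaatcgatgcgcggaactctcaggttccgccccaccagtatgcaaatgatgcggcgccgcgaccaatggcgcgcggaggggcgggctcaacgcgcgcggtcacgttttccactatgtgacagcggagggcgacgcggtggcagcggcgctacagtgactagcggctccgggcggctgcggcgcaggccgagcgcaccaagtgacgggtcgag
Tef: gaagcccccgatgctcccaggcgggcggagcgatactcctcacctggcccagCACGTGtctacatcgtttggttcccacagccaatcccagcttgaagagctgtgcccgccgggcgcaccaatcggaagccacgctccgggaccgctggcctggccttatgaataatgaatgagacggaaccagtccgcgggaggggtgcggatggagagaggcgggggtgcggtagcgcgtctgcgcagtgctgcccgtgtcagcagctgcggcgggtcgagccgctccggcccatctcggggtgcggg
Bhlhe41: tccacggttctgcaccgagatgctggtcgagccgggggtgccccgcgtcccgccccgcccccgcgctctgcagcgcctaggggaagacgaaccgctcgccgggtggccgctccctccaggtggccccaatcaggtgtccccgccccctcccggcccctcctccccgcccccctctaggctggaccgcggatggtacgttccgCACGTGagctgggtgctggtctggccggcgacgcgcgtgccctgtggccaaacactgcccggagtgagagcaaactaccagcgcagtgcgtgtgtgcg
Bmal1: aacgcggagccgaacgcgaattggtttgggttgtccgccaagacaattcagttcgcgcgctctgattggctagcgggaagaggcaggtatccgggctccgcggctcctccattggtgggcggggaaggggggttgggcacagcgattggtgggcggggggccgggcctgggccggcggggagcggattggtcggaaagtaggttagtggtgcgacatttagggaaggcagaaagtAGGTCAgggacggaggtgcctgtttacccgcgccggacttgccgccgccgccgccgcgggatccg
Both strands were searched for exact letters, so variant forms of these elements were not marked. Of the 16 clock genes measured, 14 had a promoter in the table, and the E-box was found in 3 of them (21.4%, against 6.65% of all 27457 promoters and 10.0% of those of the 7724 genes tested that had one), the D-box in 1 (7.14%, against 0.881% and 0.427%) and the AGGTCA core in 2 (14.3%, against 15.7% and 11.6%). Among the genes that passed, the E-box was in 9.09% of the promoters of those that rose and in 6.25% of those that fell. The other E-box promoter was that of Bhlhe40 and the other core that of Nr1d2. A match describes these letters in this window and is not evidence of binding.

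The signals were MAS5 intensities of 31099 probe sets on a linear scale, and 15521 of them, whose geometric mean reached 17.84 and which stood for 9170 genes, were tested. Muscle fibre markers were bright on all 4 arrays (Ckm, muscle creatine kinase, had a signal of 10866.6 and 7738.2 in 20% CR, against 9903.2 and 10250.0 in control, at 1 week and 1 month). The 3′ to 5′ ratio of actin was 1.555 and 1.369 on the 20% CR arrays and 1.699 and 1.444 on the controls. The brightest 311 probe sets had median ratios of 0.04 at 1 week and −0.15 at 1 month. Over all probe sets tested the median ratio was 0.01 at 1 week and −0.01 at 1 month. The labels disagree on 1 point: the titles and diet fields were followed, but a second line in the description of the 1-week control array speaks of reduced feeding and that of the 1-week 5% CR array of control feeding. All results were therefore also computed with these 2 arrays exchanged, which leaves the 1-month ratios as they are.

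Which transcripts differed between 20% CR and control muscle at both durations was asked first. Among the genes with the largest shared ratios that passed, the clock genes Per2 and Dbp, the zinc finger gene Zfp503 and the sulfotransferase gene Sult1a1 rose, and the clock gene Bmal1, the lipase inhibitor gene G0s2 and the ubiquitin ligase gene Wsb1 fell. In limma, which compared the 2 levels over both durations, 105 probe sets rose (0.677% of those tested) and 86 fell (0.554%). The 191 stood for 79 named genes that rose and 62 that fell, besides 29 probe sets with no single gene. The median change was 0.88 log2 among the rises and −0.89 among the falls. Each of the 191 had the same sign at both durations, as a test of the mean of both ratios favours. For 15 genes 2 or more probe sets passed, 9 genes upward and 6 downward, with none mixed. Dyrk2, a kinase, fell on 4 of 4 probe sets (−1.61 to −1.31), Glul, glutamine synthetase, rose on 3 of 3 (0.65 to 1.11), and the transcription factor Maf fell on 3 of 3 (−1.55 to −1.10).

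The precision of these calls rests on few arrays. The count of 191 was 39 without the 1-week control, 18 without the 1-week 20% CR array and 50 without the 1-month 20% CR array, and 93 rose and 39 fell without the 1-month control. It was 2 without the intensity trend of the variance, 307 with the 4 arrays alone, and 0 with the 1-week control and 5% CR arrays exchanged, where 1187 probe sets had an unadjusted p under 0.05 (1756 as labelled). All 191 kept the sign of their estimate under that exchange, as their choice by a mean that includes the unchanged 1-month ratio favours. Of the 191, 179 kept the sign of the 1-week ratio. There the 1-week ratio of the rises had a median of 0.35, against 0.94 as labelled, and that of the falls −0.38, against −0.94. Of the 191 probe sets, 15 also passed without each of the 10 arrays in turn and 6 were lost whichever array was left out. The 15 stood for 9 genes (Per2, Zfp503, Sult1a1, Pik3ip1, Il15, Phlda3, Slc41a3, Maf and Dyrk2, each on at least 1 probe set) and 4 probe sets with no single gene.

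**Figure D1:**
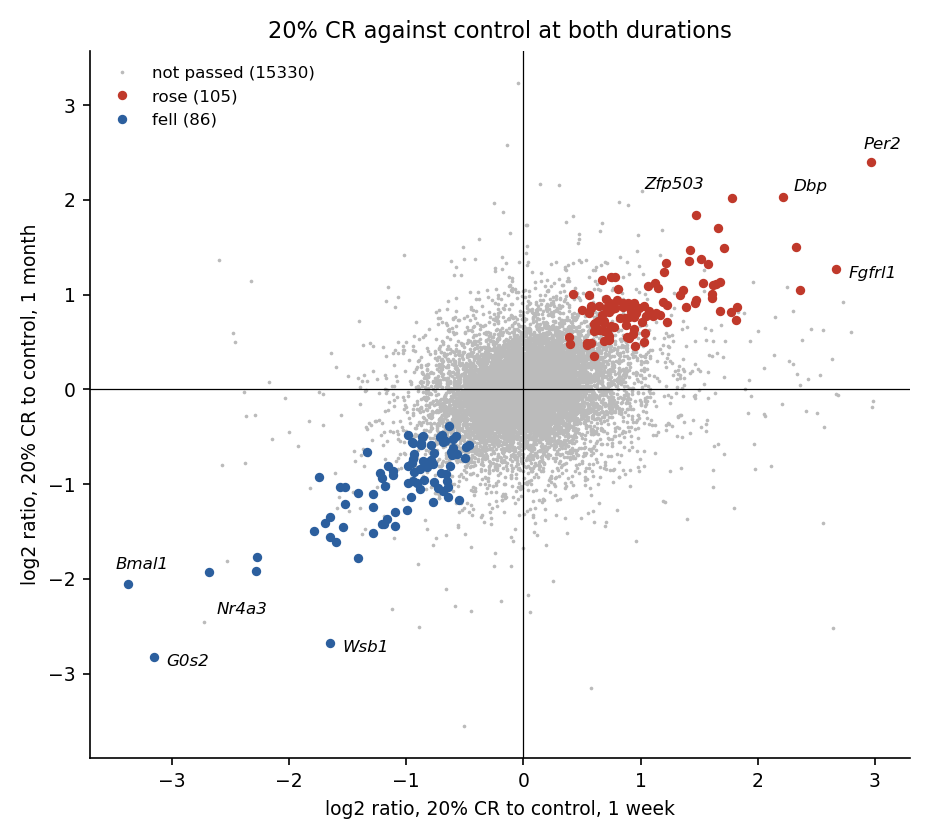
Log2 ratio of 20% CR to control at 1 week (horizontal axis) against that at 1 month (vertical axis) for 15521 probe sets, 1 point each, with the 105 that rose in red, the 86 that fell in blue and the rest in grey. Per2 lies at 2.97 and 2.40, G0s2 at −3.16 and −2.83, and the grey cloud is centred near 0 on both axes.

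Agreement between the durations was modest over all probe sets and closer among bright ones. The ratios at 1 week and 1 month had a Pearson r of 0.28 and a Spearman rho of 0.25 across the 15521 probe sets, which are not independent replicates, and 58.5% (9073) had the same sign. In 4 equal groups ordered by mean signal, r was 0.15 in the dimmest, then 0.30, 0.50 and 0.51 in the brightest, and 8, 25, 72 and 86 of the called probe sets lay in them. These calls were 0.206, 0.644, 1.86 and 2.22% of the groups, so shares over all probe sets run low for lists of bright genes. At 1 week 279 probe sets were at least 2-fold higher (1.8%) and 167 at least 2-fold lower (1.08%), and at 1 month 160 were higher (1.03%) and 207 lower (1.33%). Of the 279, 190 (68.1%) were also above 0 at 1 month, where their median ratio was only 0.28, and of the 167, 123 (73.7%) were also below 0 (median −0.42). In the other direction, 120 of the 160 (75.0%) and 143 of the 207 (69.1%) had the same sign at 1 week. Both durations reached 2-fold with the same sign for 35 probe sets upward (0.226%) and 42 downward (0.271%), against 11 with opposite signs. At 1.5-fold the shared counts were 220 (1.42%) and 193 (1.24%). Of the 77 that reached 2-fold at both durations, 50 also passed in limma.

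The 24 genes with the largest ratio shared by both durations give the pattern by name. Per2, a clock repressor, had a signal of 290.9 at 1 week and 221.8 at 1 month in 20% CR, against 37.1 and 42.0 in control. Both 20% CR values were far above both controls, and it rose 7.84-fold at 1 week and 5.28-fold at 1 month (log2 2.69 ± 0.24, SE, adjusted p = 0.000873). Dbp, the D-box activator, was at 388.2 and 239.4 in 20% CR, against 83.7 and 58.6 in control (2.12 ± 0.26, adjusted p = 0.00285). Zfp503, a zinc finger repressor, was at 556.7 and 623.6 in 20% CR, against 162.3 and 153.4 in control (1.90 ± 0.21, adjusted p = 0.00156). The groups did not overlap for any of these genes, as their choice by the smaller of both ratios favours. Sult1a1, which adds sulfate to phenols and drugs, had signals of 345.8 and 369.3 in 20% CR, against 129.3 and 133.6 in control, a rise of 2.67-fold and 2.76-fold. Pik3ip1, a membrane inhibitor of PI3 kinase, had 402.3 and 523.4 in 20% CR, against 151.2 and 204.6 in control (1.38 ± 0.15). Its ratios of 1.41 and 1.36 were among the most alike of the set.

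Of the other 7 highest genes, 5 rose: Ephx1, the microsomal epoxide hydrolase (1.45), the junction protein Ppl (1.92), the receptor Fgfrl1 (1.97), the lipid phosphatase Synj2 (1.28) and the tetraspanin Tspan4 (1.22). Fgfrl1 had signals of 73.7 and 29.8 in 20% CR, against 11.6 and 12.4 in control, and Ppl had 40.6 and 39.5 in 20% CR, against 8.1 and 13.9 in control. These 4 control signals lay below the filter value of 17.84 and below the median of their arrays (20.1 and 18.4), so the sizes of these ratios are uncertain. Blm, a DNA helicase, and Sdc3, a heparan sulfate proteoglycan, had changes of 1.40 ± 0.34 and 1.43 ± 0.40 and did not pass. Both were dim, with Blm at 33.2 and 27.0 in 20% CR, against 11.4 and 11.3 in control.

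At the lower end, G0s2, which inhibits the lipase that starts fat breakdown, had signals of 49.1 at 1 week and 148.4 at 1 month in 20% CR, against 437.5 and 1055.2 in control. It fell 8.91-fold and 7.11-fold (−2.99 ± 0.48, adjusted p = 0.0128), and both 20% CR signals lay below both controls. Bmal1 had 11.7 and 32.1 in 20% CR, against 121.7 and 133.4 in control (−2.72 ± 0.51, adjusted p = 0.0256). Here the fall was 10.4-fold at 1 week and 4.16-fold at 1 month, and the 1-week 20% CR signal lay below the intensity filter. Slc41a3, a magnesium transporter of mitochondria, had 181.1 and 163.2 in 20% CR, against 570.1 and 481.5 in control (−1.61 ± 0.16, adjusted p = 0.00107). Nmrk2, which phosphorylates nicotinamide riboside on its way to NAD in muscle, had 475.7 and 370.8 in 20% CR, against 1264.3 and 1273.4 in control (−1.60 ± 0.21). Among 11 NAD metabolism genes it was the 1 called on its brightest probe set, and Nampt, the rate-limiting enzyme of NAD salvage, rose on a dimmer one (0.65 ± 0.11, adjusted p = 0.0137). Of all probe sets tested, 0.677% rose and 0.554% fell. For Nmrk2 the controls were nearly equal, and both 20% CR values lay far below them.

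Pfkfb3, which makes the activator of phosphofructokinase, fell by 1.64 log2, with signals of 132.9 and 117.5 in 20% CR, against 457.8 and 331.2 in control. Wsb1, part of a ubiquitin ligase, fell by 2.16 with a larger ratio at 1 month (−2.68) than at 1 week (−1.65). Maf and Nr1d1 fell by 1.5 and 1.26. Nr4a3, an orphan nuclear receptor that responds to exercise and adrenaline, had ratios of −2.73 and −2.45 but a standard error of 0.62 and an adjusted p of 0.0796, so it did not pass. The same held for Nfil3 (−1.41 ± 0.32), the monocarboxylate carrier Slc16a9 (−1.39 ± 0.31) and Sapcd1 (−2.17 ± 0.48).

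**Figure D2:**
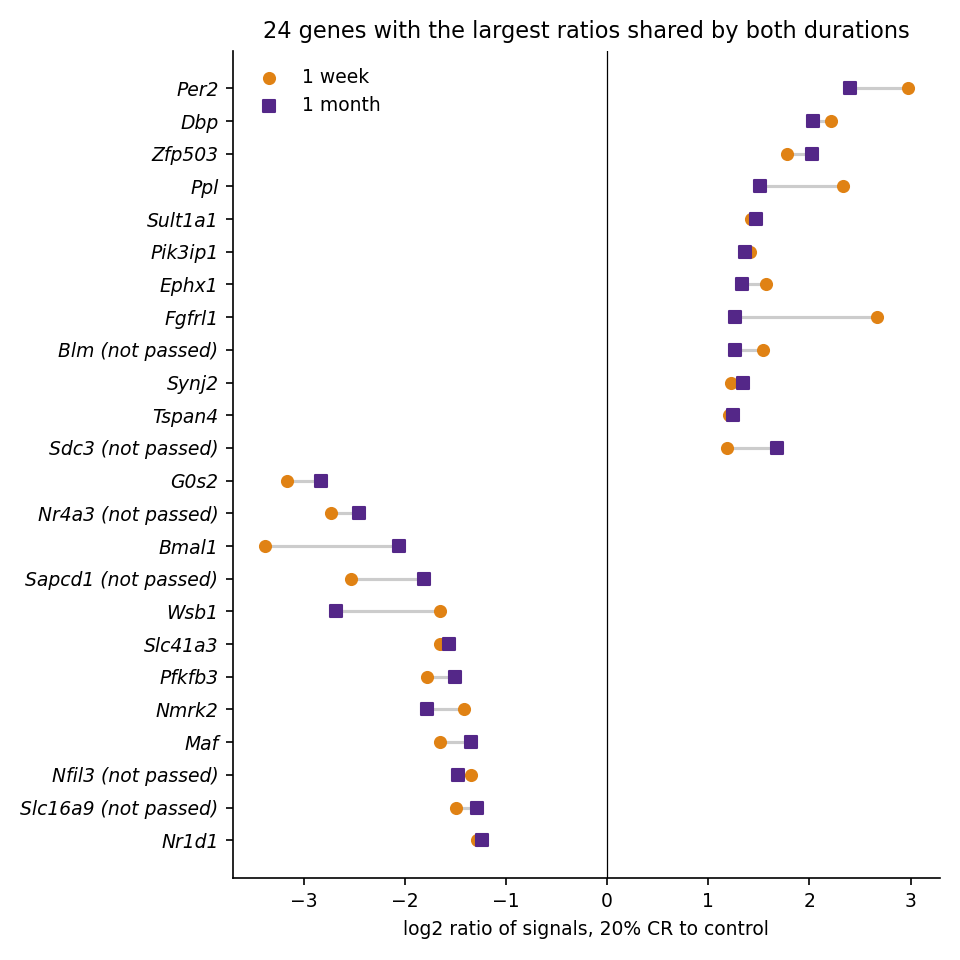
Log2 ratio of 20% CR to control (horizontal axis) for the 24 named genes (vertical axis), with orange circles for 1 week and violet squares for 1 month, 1 pair of pooled arrays per point. The circle and square nearly coincide for Sult1a1 (1.42 and 1.47) and Pik3ip1 (1.41 and 1.36) and lie apart for Fgfrl1 (2.67 and 1.26, on control signals below the filter value) and Bmal1 (−3.38 and −2.06).

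Among the clock genes, calls were made in both directions, where 0.677% of all probe sets tested rose and 0.554% fell. Of 8 measured PER, CRY and D-box genes, 3 rose (Per2, Dbp and Tef), 1 fell (Cry1) and 4 did not pass, and the list median was 0.80 at both durations, against 0.01 at 1 week and −0.00 at 1 month over all genes. Tef, a D-box activator like Dbp, had signals of 387.1 and 409.2 in 20% CR, against 207.9 and 217.9 in control (0.90 ± 0.13, adjusted p = 0.00841). Cry1, a repressor that peaks later than the Per genes, had 133.9 and 102.1 in 20% CR, against 209.2 and 208.6 in control (−0.84 ± 0.15, adjusted p = 0.0217). Per1, Cry2 and Per3 were at 0.75 ± 0.28, 0.56 ± 0.21 and 1.33 ± 0.37 and did not pass, and Hlf was at 0.07 ± 0.13.

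Among 4 measured BMAL1 activators, RORs and NFIL3, Bmal1 and Clock fell and none rose (0.554% and 0.677% of all probe sets), with list medians of −1.13 and −1.23. Clock had 207.6 and 162.5 in 20% CR, against 390.3 and 323.2 in control (−0.95 ± 0.13, adjusted p = 0.00445). Rora, an activator of Bmal1, was at 0.22 ± 0.11 and did not pass. The 4 REV-ERB and DEC repressors split, with medians of 0.27 and 0.12. Nr1d2 rose on 3 of 3 probe sets (signals of 1180.8 and 945.5 in 20% CR, against 710.7 and 537.3 in control on the brightest), and Bhlhe41, a repressor at E-boxes, rose by 0.61 ± 0.11. Nr1d1, the partner of Nr1d2, fell, with 138.4 and 98.7 in 20% CR, against 337.6 and 233.0 in control (adjusted p = 0.00285), and Bhlhe40 was at −0.22 ± 0.22. Each group was sampled once, so a shift in phase and a change in height cannot be told apart.

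**Figure D3:**
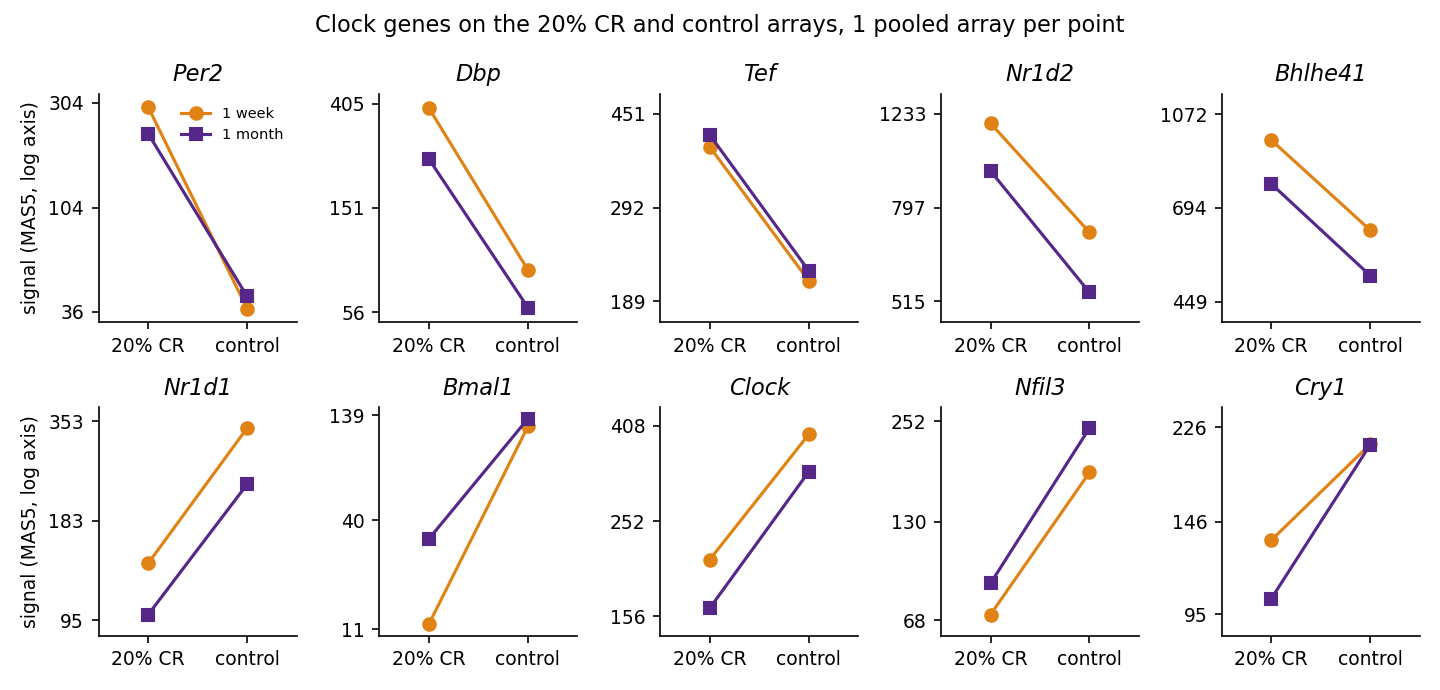
Signal (vertical axis, log scale) of 10 clock genes on the 20% CR array (left) and the control array (right) of each duration, 1 panel per gene, with orange for 1 week and violet for 1 month. Lines slope down for Per2, Dbp, Tef, Nr1d2 and Bhlhe41, whose 20% CR signals were the higher, and up for Nr1d1, Bmal1, Clock, Nfil3 and Cry1.

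Nr1d1 was also the gene in which 20% CR stood apart from 10% CR. It had signals of 138.4 and 98.7 at 20% CR, against 421.8 and 231.0 at 10% CR, a difference of −1.42 ± 0.15 log2 (limma, adjusted p = 0.0185), and was the only probe set of 15521 to pass in that comparison (0.00644%). That difference is taken between 20 and 10% CR arrays, with the spread estimated from all 10 arrays. At an unadjusted p under 0.05 there were 613, and 4 probe sets passed without either control or either 5% CR array. Those 613 were fewer than an unadjusted threshold of 0.05 gives on average among 15521 probe sets with no difference. For Nr1d1 the control signals were 337.6 and 233.0 and the 30% CR signals 91.6 and 57.7, so both 20% CR arrays sat between 10 and 30% CR. The call was lost without either 20% CR or either 10% CR array (adjusted p up to 0.774), without the intensity trend and with the 1-week arrays exchanged (adjusted p = 0.136). Bhlhe41 signals also fell from 10% CR (1263.6 and 1103.6) to 20% CR (949.9 and 775.2) and 30% CR (767.9 and 495.6). Unlike those of Nr1d1, its 20% CR signals lay above the controls (625.2 and 506.4).

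Set against 30% CR, no probe set passed in limma (0% of 15521, smallest adjusted p = 0.407, and 569 with an unadjusted p under 0.05). The 569 too were fewer than that unadjusted threshold gives on average with no difference. A miss of the threshold does not show that the levels act alike. Among the genes with the largest difference of the same sign at both durations, Dach1, a transcriptional regulator, had 1.09 and 0.96 log2 more signal at 20% than at 30% CR. Ankrd1, a stretch-responsive ankyrin repeat protein, had 0.92 and 1.46 more, and Fmod 1.18 and 0.94 more. Ucp3, an uncoupling protein of muscle mitochondria that is induced by fasting, had 0.81 and 1.07 less (−0.94 ± 0.26). Its signals were 488.3 and 712.7 in 20% CR, against 819.4 and 681.9 in control, so at 20% CR it was not above the control at 1 week.

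Tendon genes had some of the largest differences between 20% CR and both neighbouring levels. Of the 6 genes highest above 10% CR by the rule, 4 were Fmod, Tnmd, Thbs4 and Col11a1, genes known from tendon and its junction with muscle. Tnmd, a membrane protein of tendon cells, had signals of 274.0 and 163.9 at 20% CR, against 116.7 and 47.8 at 10% CR, 130.8 and 89.3 at 30% CR and 137.9 and 80.4 in control. Fmod, fibromodulin, had 388.4 and 344.7 at 20% CR, against 144.7 and 105.5 at 10% CR, 171.3 and 179.6 at 30% CR and 195.4 and 140.0 in control. At each duration the 20% CR array was the highest of the 5 for both genes. None of the differences passed in limma: against 10% CR, Fmod was at 1.57 ± 0.31 (adjusted p = 0.895) and Thbs4 at 1.11 ± 0.21 (adjusted p = 0.771), and against control they were at 1.15 ± 0.31 (adjusted p = 0.127) and 0.86 ± 0.21 (adjusted p = 0.0823).

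A list of 13 tendon markers, chosen after these values were seen and therefore given without a test, had 9 measured members. All 9 were higher at 20% CR than on the control, 10% and 30% CR arrays at 1 week, and at 1 month 8 of 9 were higher than on the control array and 8 of 9 higher than on both the 10% and 30% CR arrays. Fmod, Tnmd, Thbs4 and Col11a1 are among the 9 and were ranked by their excess over 10% CR, so their place above 10% CR was fixed in advance. The median ratio to control was 0.41 at 1 week and 0.91 at 1 month. The mean log2 signal of the 9, relative to the median of the array, was 0.84 and 0.59 at 20% CR, against 0.29 and −0.23 in control, and was −0.45 to 0.21 on the 10 and 30% CR arrays. The 1-week 5% CR array, at 0.85, was as high as 20% CR. Its label and that of the 1-week control are in question, so the 1-week difference from control rests on the titles being right. Scx, the transcription factor that defines tendon cells, had 314.0 and 249.5 in 20% CR, against 275.3 and 271.4 in control. Mkx and Kera had no probe set, and Comp and Chad lay below the filter.

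**Figure D4:**
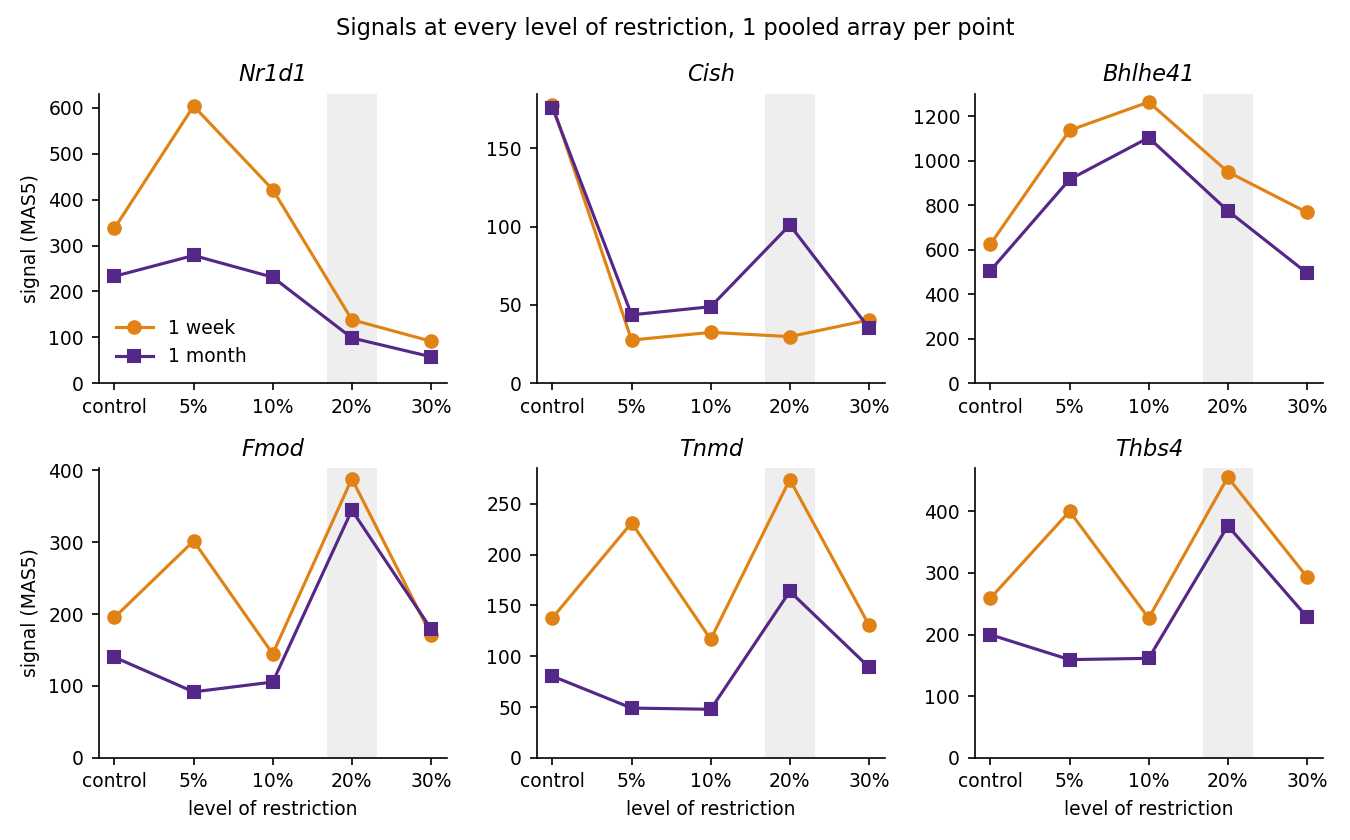
MAS5 signal (vertical axis, from 0) of 6 genes against the level of restriction (horizontal axis, control to 30%), with orange for 1 week, violet for 1 month, 1 pooled array per point and a grey band at 20% CR. Nr1d1 drops between 10% (421.8 and 231.0) and 20% CR (138.4 and 98.7), Cish stands higher at 20% CR only at 1 month (101.1), and Fmod, Tnmd and Thbs4 peak at 20% CR at both durations.

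Matrix and fibroblast genes were read beside these tendon values. Of 23 collagens and matrix genes none passed, and the medians were 0.12 and 0.17. Col1a2, a chain of type I collagen, had 3584.5 and 2108.9 in 20% CR, against 2608.1 and 1038.7 in control (0.74 ± 0.18, adjusted p = 0.096). All 9 measured fibroblast markers were higher at both durations (medians 0.24 and 0.31), and 1 rose, Clec3b, by 0.66 ± 0.14 (adjusted p = 0.0411). Of all probe sets tested, 58.5% had the same sign at both durations, in either direction, and 0.677% rose. Clec3b passed without only 2 of the 10 arrays in turn. The mean fibroblast level over the array median was 2.27 and 2.28 in 20% CR, against 1.87 and 1.90 in control. At 5, 10 and 30% CR it was 2.19, 2.30 and 2.34 at 1 week, and 2.05, 2.03 and 2.43 at 1 month. A level above the control was thus not particular to 20% CR. Ccn2, a matricellular growth factor, rose by 0.78 and 0.86, and the matrix genes Omd, Ecm2 and Adamtsl4 also rose (these 4 were chosen after their values were seen). The part of tendon or connective tissue in these rises was not tested, and in a bulk sample more cells of a type and more RNA per cell cannot be told apart.

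Enzymes that modify foreign compounds gave 6 rises and no fall among 21 measured, where 0.677% of all probe sets rose and 0.554% fell, with list medians of 0.17 at both durations. Sult1a1 and Ephx1 were joined by the flavin monooxygenases Fmo1 and Fmo2 and the glutathione transferases Gsta1 and Gstm5. The study had already named Sult1a1, Ephx1 and Fmo1 from these samples, so their rises here are not independent evidence. Fmo2 had 74.4 and 65.3 in 20% CR, against 29.5 and 32.7 in control (1.17 ± 0.18), and Fmo1 had 90.2 and 79.6 in 20% CR, against 38.5 and 43.1 in control (1.06 ± 0.18). Gsta1 had 227.2 and 338.3 in 20% CR, against 142.4 and 152.2 in control, a larger ratio at 1 month (1.15) than at 1 week (0.67). The probes of glutathione transferases can share sequence with close relatives, so the member named is uncertain. None of 21 antioxidant enzymes passed, with medians of 0.10 and 0.01. Catalase (Cat) had 1530.1 and 1698.9 in 20% CR, against 1136.3 and 1331.1 in control (0.39 ± 0.11).

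In growth hormone, IGF and insulin signalling, 2 of 21 measured genes rose (Pik3ip1 and Igfbp6), 1 fell (Igfbp5) and 18 did not pass. Of all probe sets tested, 0.677% rose and 0.554% fell. Igfbp6, which binds IGF-2, had 394.2 and 337.2 in 20% CR, against 245.0 and 207.2 in control (0.69 ± 0.11, adjusted p = 0.0138), and rose on 2 of 2 probe sets. Its signals at 10% CR were 277.4 and 232.4 and at 30% CR 290.1 and 294.2, all below the 20% CR arrays of the same duration. Igfbp5, the main IGF-binding protein of muscle, had 780.0 and 622.3 in 20% CR, against 1502.8 and 921.9 in control (−0.76 ± 0.16, adjusted p = 0.0499). It was lost without 6 of the 10 arrays in turn.

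Cish, a feedback inhibitor that growth hormone induces through STAT5, was where the 2 durations at 20% CR parted most within this list. Its signal was 29.8 in 20% CR, against 177.6 in control, at 1 week, a 5.96-fold difference, and 101.1 in 20% CR, against 176.1 in control, at 1 month, only 1.74-fold. At 1 month the signals at 5, 10 and 30% CR were 43.7, 48.9 and 35.3, so the 20% CR array lay above all 3. A second Cish probe set gave 30.7 and 66.9 in 20% CR, against 116.2 and 101.5 in control. Cish did not pass in limma (−1.69 ± 0.37, adjusted p = 0.0544). Igf1, the growth factor itself, had 200.6 and 139.6 in 20% CR, against 331.7 and 206.5 in control (−0.65 ± 0.20, adjusted p = 0.197). Socs2, another growth hormone target, was at −0.28 ± 0.29.

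Genes that respond to glucocorticoids or restrain mTORC1 gave 3 rises among 18, where 0.677% of all probe sets rose, with medians of 0.20 and 0.24. Fkbp5, a co-chaperone of the glucocorticoid receptor, had 476.4 and 506.2 in 20% CR, against 247.5 and 269.2 in control (0.93 ± 0.14, adjusted p = 0.00956). Glul had 3352.4 and 3357.7 in 20% CR, against 2085.7 and 2037.2 in control (0.70 ± 0.13), and Klf9, a transcription factor induced by glucocorticoids, rose by 0.50 ± 0.09. On these brightest probe sets the ratios of each were alike at the 2 durations, while the other Fkbp5 probe set had 1.61 at 1 week and 0.96 at 1 month. Ddit4, an mTORC1 inhibitor, went opposite ways, with 187.5 and 447.3 in 20% CR, against 275.3 and 268.9 in control. Of 19 FOXO, atrophy and autophagy genes 1 rose, Foxo3, by 0.52 ± 0.11, a call lost without any 1 of the 10 arrays. The ubiquitin ligases of muscle wasting were near 0 (Fbxo32 0.05 ± 0.19 and Trim63 0.03 ± 0.14).

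For fat, 1 of 22 genes of uptake and beta-oxidation rose, where 0.677% of all probe sets rose and 0.554% fell. Cd36, the fatty acid carrier, had 1132.8 and 1007.1 in 20% CR, against 554.9 and 709.7 in control (0.77 ± 0.13, adjusted p = 0.0158). All 22 were higher at 1 week (median 0.25), but 10 of 22 at 1 month (median −0.01). The mean of the list over the array median was 3.05 on the 1-week control, the lowest of the 10 arrays. It was 3.22 on the 1-week 5% CR array and 3.34 on the 1-week 20% CR array. The 1-week control was also the lowest for slow fibre genes, and its part in these 1-week ratios was not tested. In fatty acid and triglyceride synthesis Dgat2, which makes triglyceride, rose by 1.31 ± 0.15, with 398.8 and 328.4 in 20% CR, against 130.4 and 163.6 in control. Srebf1, the transcription factor of lipid synthesis that insulin induces, fell by 1.27 ± 0.21, with 256.8 and 294.2 in 20% CR, against 549.8 and 798.8 in control. Of 9 lipolysis and lipid droplet genes G0s2 alone passed, and the lipase it inhibits, Pnpla2, was at 0.33 ± 0.12.

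None of 12 fasting fuel switch genes passed on its brightest probe set (medians 0.22 and 0.16). Pdk4, the kinase that shuts pyruvate out of mitochondria, had 3600.7 and 3882.2 in 20% CR, against 2701.5 and 2956.2 in control (0.40 ± 0.10, adjusted p = 0.0998), and passed on a dimmer probe set with ratios of 0.58 and 0.86. Ppargc1a, a coactivator of mitochondrial genes, was at 0.83 ± 0.20 and passed only on a dimmer probe set. Of 21 genes of glucose uptake, glycogen and glycolysis, Pfkfb3 fell and the rest did not pass, with medians of 0.12 and −0.20. Of all probe sets tested, 0.677% rose and 0.554% fell. Herpud1, a gene of the endoplasmic reticulum stress response, rose by 1.19 ± 0.17 (839.6 and 1021.6 in 20% CR, against 305.0 and 544.0 in control) and was the 1 called gene of 18 in its list.

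Contractile genes differed between the durations. The 11 slow fibre genes had a median ratio of 2.06 at 1 week and 0.01 at 1 month, and none passed. Myh7, the slow myosin, had 2538.6 and 2210.6 in 20% CR, against 464.2 and 1422.9 in control (1.54 ± 0.41). The mean of the list over the array median was 3.57 and 3.28 at 20% CR, against 1.81 and 3.20 in control, and the 1-week control was the lowest of the 10 arrays. On the 1-week 5% CR array, whose label and that of the 1-week control are in question, this mean was 3.45 and Myh7 had 2315.4. The 1-week ratios of slow fibre genes therefore rest on the titles being right. Fast fibre genes, 16 in number, were all higher at 1 week (median 0.08) and all lower at 1 month (median −0.37), and none passed. Tnni2, the fast troponin I, had 11521.6 and 8740.7 in 20% CR, against 11070.5 and 11553.8 in control. The control transcripts added at hybridization had a mean log2 signal of 9.54 and 8.95 in 20% CR, against 9.59 and 9.69 in control. They too were thus lower at 1 month. A second set of control transcripts, with poly-A tails, had 4.15 and 5.23 in 20% CR, against 5.27 and 5.74 in control, lower at both durations. The part of the array in the fast fibre ratios was not tested. Of 11 stretch and load genes 1 rose, Fhl3, a muscle LIM protein, by 0.71 ± 0.10, where 0.677% of all probe sets rose. The list median was 0.60 at 1 week and 0.16 at 1 month, and the part of the low slow fibre level of the 1-week control in these ratios was not tested.

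Markers of other cells gave few calls, where 0.677% of all probe sets rose and 0.554% fell. Of 13 macrophage markers none passed, with medians of 0.13 and 0.55, and Cd163, a scavenger receptor, had 49.1 and 41.4 in 20% CR, against 13.3 and 23.7 in control (1.34 ± 0.31, adjusted p = 0.0696). The mean level of the list over the array median was −0.66 and −0.49 in 20% CR, against −0.93 and −1.0 in control. Of 12 endothelial markers 1 fell, Kdr, the VEGF receptor, by 0.89 ± 0.16 (127.1 and 76.1 in 20% CR, against 198.1 and 167.2 in control), while Pecam1 was at 0.15 ± 0.23. Adipocyte (4 measured), smooth muscle and pericyte (6), Schwann cell (3), satellite cell (2) and blood cell markers (3) gave no call, and Adipoq, which defines adipocytes, had 20.5 and 17.2 in 20% CR, against 15.0 and 13.0 in control.

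**Figure D5:**
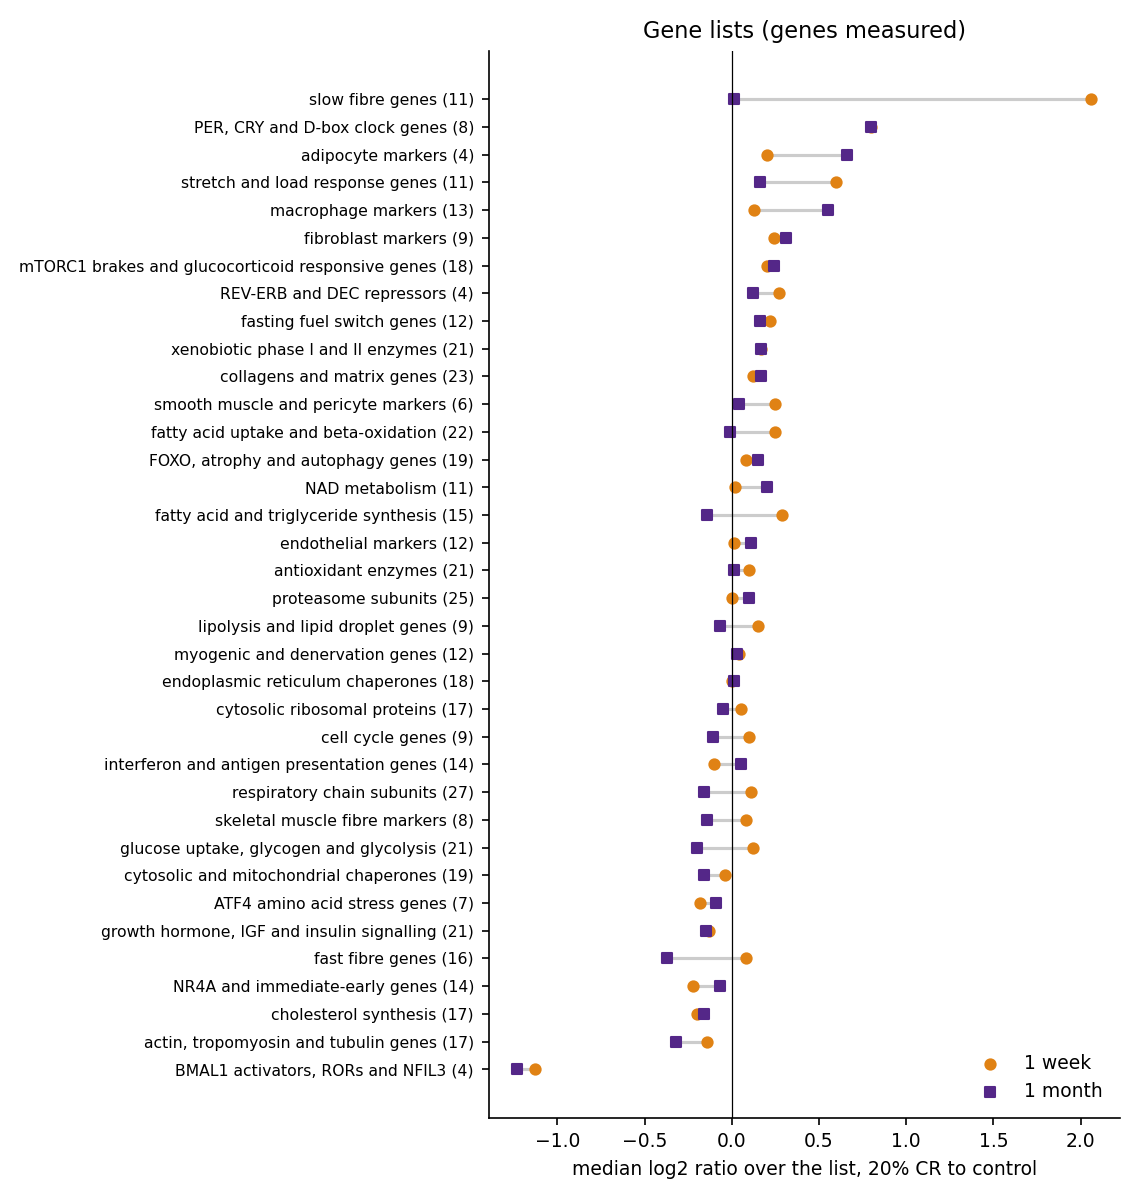
Median log2 ratio of 20% CR to control (horizontal axis) over each of 36 gene lists with at least 4 measured genes (vertical axis, number measured in brackets), orange circles for 1 week and violet squares for 1 month. Slow fibre genes lie at 2.06 and 0.01, PER, CRY and D-box genes at 0.80 and 0.80, and BMAL1 activators, RORs and NFIL3 at −1.13 and −1.23. All 1-week values rest on the 1-week control array, whose label is in question.

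Respiratory chain subunits (27 measured), ribosomal proteins and proteasome subunits gave no call, where 0.677% of all probe sets rose and 0.554% fell. These lists are bright, and in the brightest of the 4 signal groups 2.22% of probe sets were called. Respiratory chain subunits had medians of 0.11 and −0.16, cytosolic ribosomal proteins (17) 0.05 and −0.05 and proteasome subunits (25) 0.00 and 0.10. Cholesterol synthesis genes (17) had medians of −0.20 and −0.16 with none passing, and 11 of 17 were lower at both durations. Of all probe sets tested, 58.5% had the same sign at both durations, in either direction. Actin, tropomyosin and tubulin genes (17) had medians of −0.14 and −0.32, 13 of them lower at both durations, and the 1 that passed, the filament protein Vim, rose by 0.47 ± 0.09. Cytosolic and mitochondrial chaperones (19) had medians of −0.04 and −0.16 and no call.

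The genes that the study itself singled out in these samples were read last, and their direction here is not independent evidence. Of 4 named for higher signal in muscle at all levels, Sult1a1, Fmo1 and Synj2 rose, and Pdk4 rose on its dimmer probe set (0.72 ± 0.14, adjusted p = 0.0272) but not on its brightest. Among those named for lower signal in muscle, G0s2, Nmrk2 and Wsb1 fell and Cish did not pass. Of 9 named as higher across tissues 7 rose on the brightest probe set. Nampt rose on a dimmer one with ratios of 0.61 and 0.70 (0.44 ± 0.17 on the brightest, which did not pass), and Akr1c14 (0.64 ± 0.26) did not pass. Of 8 measured genes named as lower across tissues 1 fell, Cmtm6 (59.3 and 41.3 in 20% CR, against 113.7 and 80.6 in control), and 7 did not pass, all with ratios below 0 at both durations.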

How the data were processed

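The authors pooled RNA from 5 rats per group, put each pool on 1 Affymetrix array (Rat Genome 230 2.0) and deposited MAS5 signal intensities on a linear scale, without detection calls. Signals were floored at 0.1 and logged to base 2 (log2). The 57 control probe sets were dropped, and those at or above the 50th percentile of mean log2 signal were tested. Of 31099 probe sets 20832 carried 1 gene. Levels were compared with limma 3.58.1 in R 4.3.3 (level and duration as factors over all 10 arrays, eBayes with trend, Benjamini-Hochberg adjustment over 15521 probe sets, threshold 0.05). The residual variance comes from level-by-duration differences, not from replicates, and the number of arrays limits the precision. Ratios have no error of their own.

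Lists used the brightest probe set of a gene and 524 of 644 listed genes. Named genes were the 12 highest and 12 lowest by the smaller of both ratios with the same sign, up to 4 per list, the defining markers, the study genes, 8 per direction with opposite signs, and 6 per direction between levels. Other list members named with values that did not pass (such as Ddit4, Socs2 and Trim63) were chosen with their values seen. Members, lists and rules were chosen with earlier results of these data known. Scripts were tested on simulated data. Alternatives are given in the closing section.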

Additional observations from a re-analysis of the deposited data

Results flagged for a closer look

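Some results at 20% CR had opposite signs at the 2 durations. With 1 array per group the difference between durations was not tested for any of them. All 16 fast fibre genes were higher than control at 1 week (median log2 ratio 0.08) and lower at 1 month (median −0.37), and the brightest 311 probe sets moved alike (0.04 and −0.15). Zic2 had ratios of −2.60 at 1 week and 1.37 at 1 month, Shank3 −2.32 and 1.14, and Glmn −1.02 and 1.42. Mier2 had 1.40 at 1 week and −1.37 at 1 month, and Cenpm 1.62 and −1.03. All 5 genes were dim, with signals of 4.2 to 47.6 on the 20% CR arrays and 11.1 to 38.8 on the controls.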

How the results depend on the processing

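The count of 191 probe sets for 20% CR against control was 160 to 202 with quantile normalization, median centring, no filter, the 70th percentile filter or log2 of signal plus 32, with 157 to 190 of the 191 among them. It was 2 without the intensity trend, 307 with only the 4 arrays compared and 0 with the 1-week control and 5% CR arrays exchanged, and 18 to 198 when 1 array was left out. Against 30% CR the count of 0 was 53 with only the arrays compared and 0 to 1 when 1 array was left out. Against 10% CR the count of 1 was 75 with only the arrays compared, 0 without the trend or with the exchange, and 0 to 4 when 1 array was left out. The 2-fold counts depended on dim probe sets. At both durations the 77 became 1859 with no filter, 40 with the 70th percentile filter, 29 with log2 of signal plus 32, 24 with the exchange, 413 at 1.5-fold and 13 at 3-fold. At 1 week the 446 became 7539, 116, 79, 286, 1850 and 112 in the same order. At 1 month the 367 became 7116, 85, 45, 1562 and 58, the exchange leaving it as it is. The correlation between durations, 0.28, was 0.02 with no filter, 0.48 with the 70th percentile filter, 0.38 with log2 of signal plus 32 and 0.16 with the exchange. No estimate that passed, as reported or under an alternative, changed sign among 219 estimates of named genes, and calls were lost most often without the 1-week 20% CR array (35), the 1-week control (28), the 1-month 20% CR array (25) and the 1-month control (19), and in 40 cases each without the trend and with the exchange. An estimate that passed is large for its error, which favours a kept sign. The cause of the lost calls was not tested. Duration, which pairs each 20% CR array with its control, was a factor in every fit, and the arrays carry no replicate numbers for any other pairing.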

Other observations

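Genes outside the lists were also among those that passed, and were chosen here after their values were seen. Xdh, xanthine dehydrogenase, rose, with signals of 351.7 and 365.7 in 20% CR, against 180.2 and 209.7 in control, and so did Gda, guanine deaminase, on 2 of 2 probe sets. Il15, a cytokine that muscle releases, had 291.3 and 365.1 in 20% CR, against 134.0 and 167.1 in control, with ratios of 1.12 and 1.13. Slc38a3, a glutamine transporter, rose (118.3 and 121.4 in 20% CR, against 38.6 and 56.4 in control), as did Usp2, a deubiquitinase, on 2 of 2 probe sets, and Wee1, a cell cycle kinase that the clock is known to drive (98.5 and 130.1 in 20% CR, against 58.5 and 57.0 in control).

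Among the falls were Gatm, the first enzyme of creatine synthesis (165.4 and 67.0 in 20% CR, against 304.1 and 138.6 in control), Gpd2, the mitochondrial glycerol phosphate dehydrogenase (ratios of −0.86 and −0.49), and Smad3, a transducer of TGF-beta and myostatin signals (697.9 and 517.8 in 20% CR, against 962.9 and 780.0 in control). Nfe2l2, the regulator of antioxidant and detoxification genes, rose by ratios of 0.58 and 0.49.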
